A study of Rattus norvegicus with 8 samples.

Results

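The genes described here are 36 genes of glycolysis, lactate and glycogen metabolism, chosen by symbol from what the encoded proteins do. Of these, 35 have an entry among the 14016 of the table of thyroarytenoid (TA) muscle RNA sequencing, and Gapdh has none under its own symbol. The TA is the laryngeal muscle that forms the body of the vocal fold and helps to set its tension during vocalization. The muscle was taken from male Long Evans rats aged 8 months, of which 4 were Pink1-/- and 4 were WT. Pink1-/- rats lack Pink1, the mitochondrial kinase that is mutated in one inherited form of Parkinson's disease. The only value used for each gene is the authors' average log2 CPM (reads of a gene for each 1000000 reads of a sample, on the log2 scale) over the samples of both genotypes. There is no column for a single rat, so no spread between rats is given and depth per library is unknown. The authors' own comparison of the genotypes was not used, so no comparison of Pink1-/- with WT is given. What follows compares muscle isoforms with ubiquitous or other-tissue ones in the pooled muscle.

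Glycolysis splits glucose into pyruvate in the cytosol and yields ATP without oxygen, and lactate dehydrogenase turns pyruvate into lactate when glycolysis outpaces the mitochondria. Glycogen is the glucose store of the fiber, and glycogen phosphorylase releases glucose units from it during contraction. Several of the enzymes are encoded by paralogs, of which one is typical of skeletal muscle and others are expressed widely or in liver, brain or platelets. In mammals fast-contracting fibers are known for high levels of several glycolytic muscle isoforms, but not of every muscle isoform compared here. Laryngeal adductor muscles such as the TA are built mainly of fast fibers.

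The table carried the marks of skeletal muscle. Of 13 skeletal muscle markers 9 have an entry, among them Myh4, the fast IIB myosin heavy chain, at 14.75 log2 CPM and Ckm, muscle creatine kinase, at 12.15 log2 CPM, while Myh7, the slow myosin, was at 4.20 log2 CPM. The fast myosins Myh1 and Myh2, Myh13, a myosin of extraocular and laryngeal muscle, and Atp2a1, the fast-fiber calcium pump, have no entry among those held here. None of 4 liver markers has an entry either. The filters are not known, so a missing entry does not show a low level. Markers of squamous epithelium have an entry for 6 of 6, from 4.37 to 8.18 log2 CPM, so the pooled RNA is not of muscle fibers alone. Their part in the level of any glycolytic gene was not tested. The 2 highest entries took 43.0% of the summed CPM, and leaving them out would raise every other level by 0.81 on the log2 scale without changing any difference between genes.

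Many of the listed glycolysis and glycogen genes were among the most abundantly read genes of the muscle. The 35 genes with an entry had a median of 7.73 log2 CPM, against 3.14 log2 CPM over all 14016 entries, and 33 of them lay above that overall median. Of the 35, 20 reached the 90th percentile of all entries (5.69 log2 CPM) and 10 reached the 99th percentile (8.27 log2 CPM). Together they held 1.62% of the summed CPM, or 2.85% without the 2 highest entries. Only Pfkp, the platelet phosphofructokinase, and Pygl, the liver glycogen phosphorylase, fell below the overall median. CPM counts reads and not molecules, and a longer transcript yields more reads. Transcript lengths were not used here, so the values order the genes by reads.

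**Figure D1:**
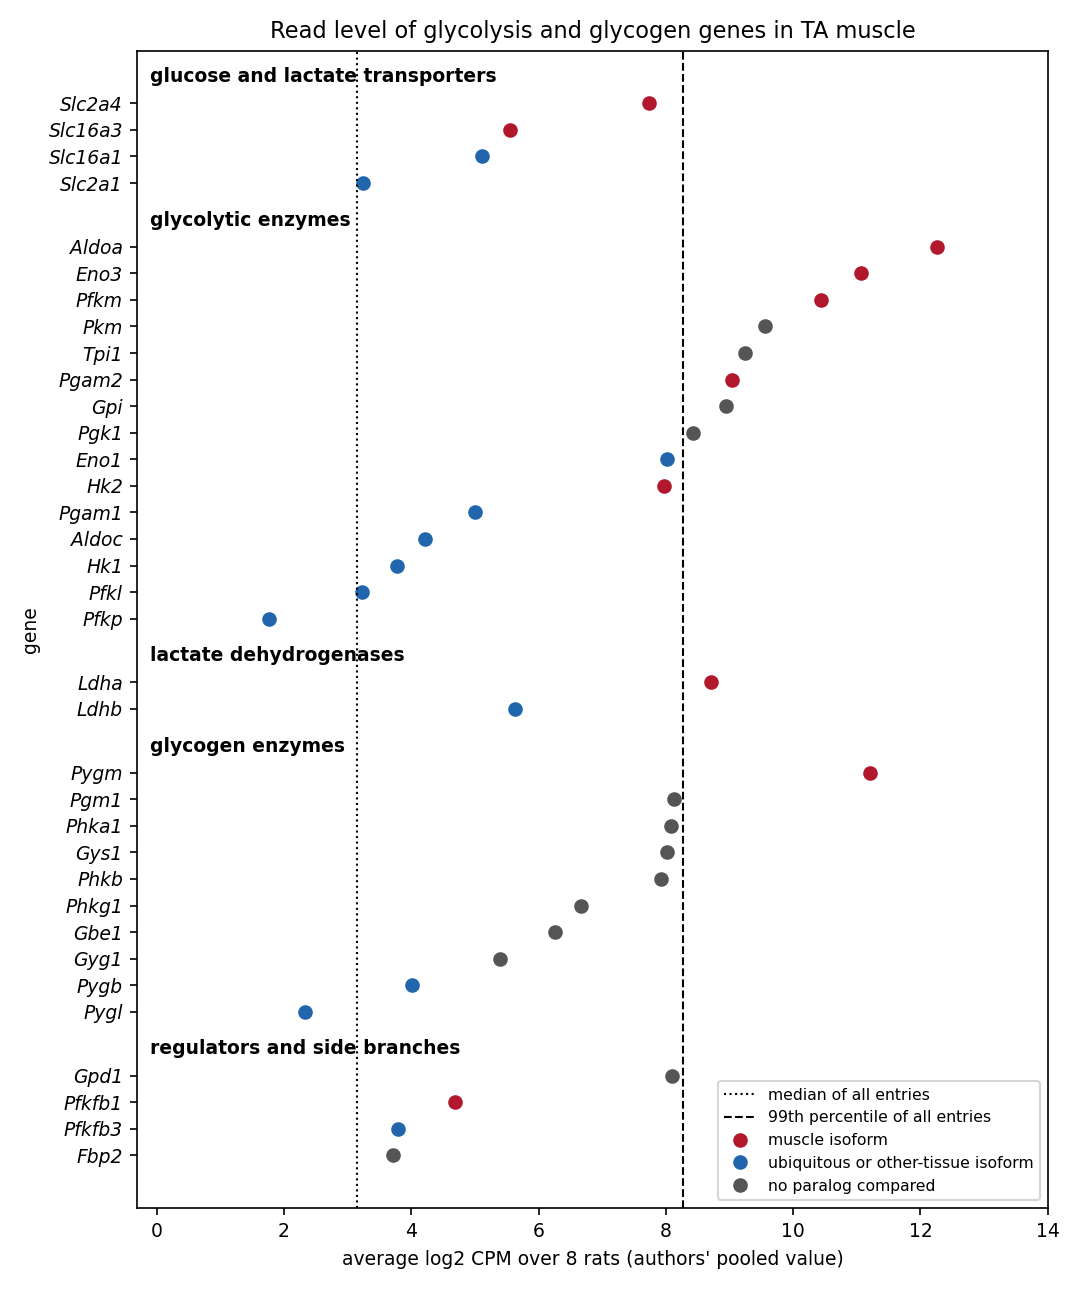
Average log2 CPM over 8 rats for the 35 genes with an entry, grouped by role and ordered within each group, with the authors' pooled value as 1 point per gene. The dotted line marks the median of all 14016 entries and the dashed line their 99th percentile. Muscle isoforms such as Aldoa (12.27) and Pygm (11.20) lie at the right, and Pfkp (1.76) and Pygl (2.34) lie left of the dotted line.

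The enzymes of the glycolytic chain itself were the highest group. Of 16 listed, 15 have an entry, with a median of 8.42 log2 CPM and 1.16% of the summed CPM. Aldoa, which splits fructose bisphosphate, led all members at 12.27 log2 CPM (ENSRNOG00000052802), or 4923 CPM, and ranked 15th among all entries. Eno3, the muscle enolase, followed at 11.07 log2 CPM and rank 30, and Pfkm, the muscle phosphofructokinase that sets the pace of the pathway, at 10.45 log2 CPM and rank 47. These 3 muscle isoforms stood above every glycolytic enzyme without a compared paralog that has an entry under its own symbol. Among those without a compared paralog, Pkm, the pyruvate kinase that makes pyruvate, was at 9.55 log2 CPM. Tpi1, which interconverts the triose phosphates, was at 9.25 log2 CPM, and Gpi, which turns glucose 6-phosphate into fructose 6-phosphate, was at 8.94 log2 CPM. Pgk1, a phosphoglycerate kinase that forms ATP, was at 8.42 log2 CPM. Pkm gives both the muscle form PKM1 and the widely expressed form PKM2 by alternative splicing, and a value per gene does not tell them apart. Glyceraldehyde-3-phosphate dehydrogenase, the enzyme of Gapdh, is the description of 2 entries under the symbol LOC108351137, at 10.87 and 10.57 log2 CPM (ranks 35 and 43). These would place the enzyme between Pfkm and Aldoa, but which reads of the Gapdh locus each entry holds is not known.

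Hexokinase, the entry step that phosphorylates glucose, was read mainly as the muscle isoform Hk2, at 7.97 log2 CPM, against 3.78 log2 CPM for the widely expressed Hk1. Phosphofructokinase was more one-sided, with Pfkm at 10.45 log2 CPM, against 3.23 log2 CPM for the liver type Pfkl and 1.76 log2 CPM for the platelet type Pfkp. Among aldolases Aldoa was at 12.27 log2 CPM, against 4.22 log2 CPM for Aldoc, the brain type. Aldoa is classed here as the muscle isoform but is not confined to muscle. It has 3 RefSeq starts, and a value per gene does not tell their transcripts apart. Differences in log2 CPM were 4.19 for hexokinase, 7.21 and 8.68 for phosphofructokinase and 8.04 for aldolase. The transcript of Aldoa would have to be 263 times as long as that of Aldoc for length alone to give its difference, that of Pfkm 148 times as long as that of Pfkl, and that of Hk2 18.3 times as long as that of Hk1.

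In the lower part of the pathway the muscle isoforms also took most reads, with a wider share for the ubiquitous enolase. Pgam2, the muscle phosphoglycerate mutase, was at 9.03 log2 CPM, against 4.999 log2 CPM for the widely expressed Pgam1, a difference of 4.03. Eno3 was at 11.07 log2 CPM, against 8.02 log2 CPM for the ubiquitous Eno1, a difference of 3.04. Eno1 was the highest of the 12 ubiquitous or other-tissue isoforms and the only one of them at or above the 90th percentile of all entries. Ldha, which favors lactate formation and is the main subunit of fast muscle, was at 8.71 log2 CPM, against 5.63 log2 CPM for Ldhb, the main subunit of heart, a difference of 3.08.

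**Figure D2:**
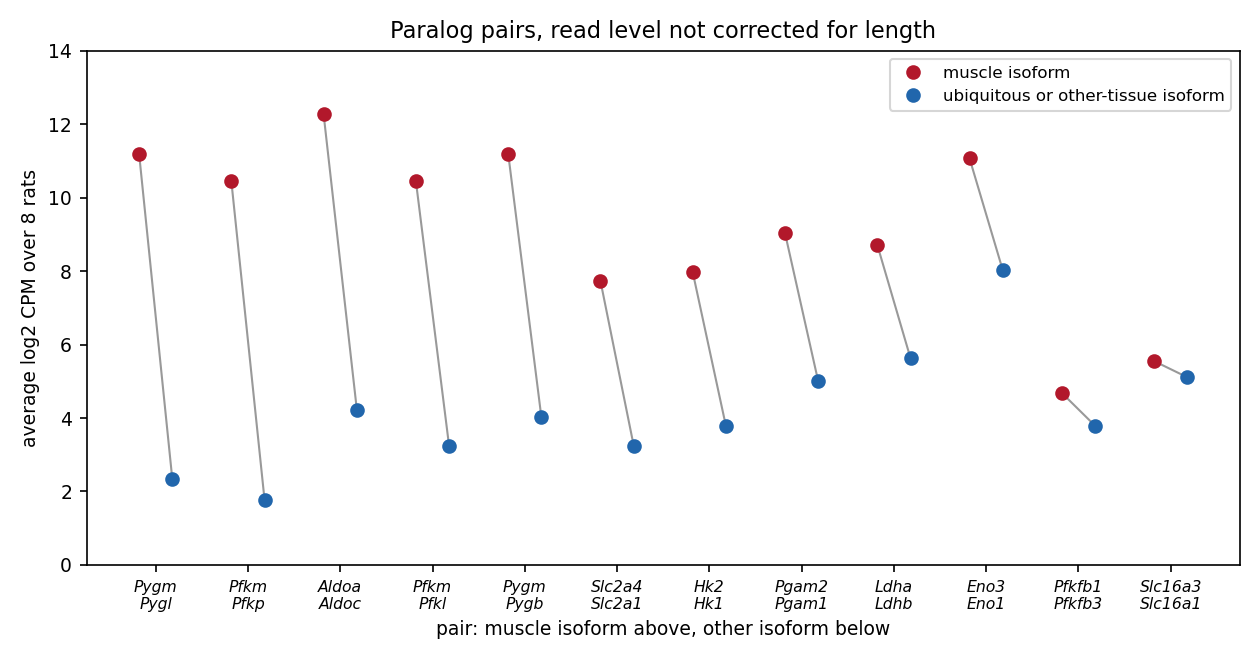
Average log2 CPM over 8 rats for 12 paralog pairs in 10 families, with the muscle isoform at the left of each pair and the ubiquitous or other-tissue isoform at the right. Pairs run from the largest difference (8.86 for Pygm and Pygl) to the smallest (0.44 for Slc16a3 and Slc16a1), and in each pair the muscle isoform is the higher point.

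Transport of sugar and lactate divided into a pair with a wide gap and a pair with a narrow one. Slc2a4, the insulin-responsive glucose transporter GLUT4, was at 7.73 log2 CPM, against 3.25 log2 CPM for Slc2a1, the basal transporter GLUT1, a difference of 4.48. Slc16a3, the lactate exporter MCT4 of glycolytic fibers, was at 5.55 log2 CPM, against 5.11 log2 CPM for Slc16a1, the carrier MCT1 that takes up lactate in oxidative fibers. Their difference of 0.44 would be offset by an Slc16a3 transcript 1.36 times as long as that of Slc16a1, so no order of transcripts can be given for this pair. The RefSeq span of Slc16a3 in the assembly GRCr8 also overlaps that of Csnk1d, at 5.30 log2 CPM, and whether the counting used strand is not given in the sources used here.

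Glycogen breakdown was dominated by the muscle phosphorylase. Pygm, whose loss causes McArdle disease in humans, was at 11.20 log2 CPM (ENSRNOG00000021090) and rank 27, against 4.02 log2 CPM for the brain isoform Pygb and 2.34 log2 CPM for the liver isoform Pygl. Differences were 7.18 and 8.86, and transcripts 145 and 465 times as long would be needed to give them by length. The subunits of phosphorylase kinase, which switches the phosphorylase on, lay lower, with Phka1, the muscle alpha subunit, at 8.08 log2 CPM and Phkb, the beta subunit, at 7.93 log2 CPM. Phkg1, the muscle catalytic subunit, was at 6.67 log2 CPM, and its span overlaps Sumf2, at 5.90 log2 CPM. Pgm1, the phosphoglucomutase that links glycogen to glycolysis, was at 8.13 log2 CPM.

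The enzymes that build glycogen were read at lower levels than Pygm. Gys1, the muscle glycogen synthase, was at 8.02 log2 CPM, Gbe1, the branching enzyme, at 6.25 log2 CPM and Gyg1, the glycogenin that primes new granules, at 5.40 log2 CPM. All 3 nonetheless lay above the overall median of 3.14 log2 CPM. The 10 glycogen genes had a median of 7.30 log2 CPM and 0.359% of the summed CPM, of which Pygm alone made up 2353 of 3649 CPM.

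Regulators and side branches formed the lowest group, with a median of 4.24 log2 CPM, except for Gpd1. Gpd1, the cytosolic glycerol-3-phosphate dehydrogenase that passes electrons from glycolysis toward mitochondria, was at 8.10 log2 CPM. Pfkfb1, the bifunctional enzyme gene of liver and muscle that sets the level of fructose 2,6-bisphosphate, was at 4.68 log2 CPM, against 3.79 log2 CPM for the inducible Pfkfb3. That difference of 0.89 would be offset by a transcript 1.86 times as long. Fbp2, the muscle fructose bisphosphatase that runs the opposite reaction to phosphofructokinase, was at 3.71 log2 CPM.

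Across the 10 families the muscle isoform had the higher CPM in 12 of 12 pairs, with a median difference of 4.34 on the log2 scale. Aldoa and Ldha are classed as the muscle isoforms of their families, though neither is confined to muscle. In 10 of the 12 pairs the difference exceeded 3, which is an 8-fold ratio of reads. As a share of the summed CPM of its family, the muscle isoform held 99.6% for aldolase, 99.1% for both phosphofructokinase and glycogen phosphorylase, 95.7% for the glucose transporters, 94.8% for hexokinase and 94.2% for phosphoglycerate mutase. It held 89.5% for lactate dehydrogenase and 89.2% for enolase. The shares of Pfkfb1 and Slc16a3 were 65.0% and 57.6%, and that of Pfkfb1 was 47.4% once the further isoforms Pfkfb2 and Pfkfb4 were counted. With further isoforms counted in the same way, the share was 84.3% for Slc2a4 and 54.8% for Slc16a3, and that of Eno3 stayed at 89.2%. Over the genes of each kind in these pairs, the 10 muscle isoforms had a median of 8.87 log2 CPM, from 4.68 to 12.27. The 12 other isoforms had a median of 3.904 log2 CPM, from 1.76 to 8.02. The ranges overlap because Pfkfb1, Slc16a3 and Slc2a4 lie below Eno1, as does Hk2. Members without a compared paralog were in neither group. Among them are the muscle forms Gys1 at 8.02, Phka1 at 8.08, Phkg1 at 6.67 and Fbp2 at 3.71 log2 CPM. These are single pooled values per gene, and no test of the differences was made.

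Some of the most abundant members have near copies, between which the counting may divide reads, and such sharing was not measured. RefSeq lists 199 pseudogenes named after 12 of the 36 genes, led by Gapdh with 81, Eno1 with 31, Ldha with 30 and Pkm with 19. In the table, an entry described as triosephosphate isomerase-like (LOC100911515) was at 7.06 log2 CPM, beside 9.25 log2 CPM for Tpi1. An entry described as similar to the lactate dehydrogenase A chain (RGD1562690) was at 5.004 log2 CPM, beside 8.71 log2 CPM for Ldha. Adding such an entry to its member raises Tpi1 by 0.29 and Ldha by 0.11 on the log2 scale. The entries that resemble Eno1 and Pkm lay at 0.84 and 1.51 log2 CPM and add 0.01 or less. The levels of Tpi1, Ldha, Eno1, Pkm, Pgk1, Pgam1 and Aldoa may therefore be uncertain by an unknown amount. The same holds for the differences and shares of the pairs that include them. Eno1 with 31 pseudogenes and Pgam1 with 13 are the other isoforms of their pairs, while Ldha with 30 and Aldoa with 9 are the muscle isoforms.

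Other genes of the same pathways lay lower on the whole. Of 42 further genes, 31 have an entry, with a median of 3.96 log2 CPM. Of these 31, 21 lie above the overall median and 8 reach the 90th percentile of all entries. Among the 5 highest were Pdha1, a subunit of pyruvate dehydrogenase, at 9.15, Ppp1r3a, the muscle glycogen-targeting subunit of protein phosphatase 1, at 8.91, Ugp2, which makes UDP-glucose, at 8.17 and Ppp1r3c, another glycogen-targeting subunit, at 6.83 log2 CPM. The 5 lowest were Eno2, the neuronal enolase, at -0.50, the monocarboxylate carriers Slc16a4 at 0.27 and Slc16a7 at 1.56, Pfkfb4 at 2.02 and the glucose transporter Slc2a3 at 2.17 log2 CPM. Isoforms of the families above with middling values were Pfkfb2 at 3.41, Slc2a8 at 2.71 and Slc2a12 at 4.25 log2 CPM. Liver forms such as Pklr, Gys2, Fbp1 and Phka2 are among the 11 further genes with no entry among those held here.

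The promoters of the muscle and other isoforms were set side by side in their CpG content, which the choice of genes did not use. The isoform classes rest on known tissue expression, and the members were chosen with earlier results of these data known. CpG dinucleotides are depleted over most of the genome, and promoters of widely expressed genes often keep them, while many tissue-restricted promoters do not. The observed over expected CpG ratio was computed over the 300 bases around each start in RefSeq (assembly GRCr8), 250 before and 50 after. Promoters of 32 members matched, with 37 starts, and Slc2a4, Gpd1, Pgk1 and Fbp2 were not matched. The stretches before the start of a pair of phosphoglycerate mutases and a pair of glycogen phosphorylases were chosen after their values were seen, because they show the contrast plainly, and are given with each CG in capitals.
Pgam2 (GRCr8, chr14:84897875-84898124, minus strand): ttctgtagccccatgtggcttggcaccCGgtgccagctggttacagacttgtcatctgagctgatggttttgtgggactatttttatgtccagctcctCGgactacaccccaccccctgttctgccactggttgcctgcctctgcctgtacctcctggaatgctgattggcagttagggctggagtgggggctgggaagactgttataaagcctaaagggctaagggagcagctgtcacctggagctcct
Pgam1 (GRCr8, chr1:250672902-250673151, plus strand): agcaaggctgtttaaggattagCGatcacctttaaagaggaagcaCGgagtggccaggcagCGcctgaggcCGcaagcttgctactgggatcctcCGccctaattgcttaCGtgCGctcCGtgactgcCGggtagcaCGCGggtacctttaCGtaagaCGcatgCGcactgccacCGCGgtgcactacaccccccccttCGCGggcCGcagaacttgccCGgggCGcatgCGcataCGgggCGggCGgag
Pygm (GRCr8, chr1:213119555-213119804, plus strand): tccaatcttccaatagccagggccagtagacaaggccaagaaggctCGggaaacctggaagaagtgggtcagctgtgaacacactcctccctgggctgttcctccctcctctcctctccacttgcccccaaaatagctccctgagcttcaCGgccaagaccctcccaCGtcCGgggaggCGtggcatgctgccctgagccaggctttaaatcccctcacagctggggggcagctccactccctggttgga
Pygb (GRCr8, chr3:160071891-160072140, plus strand): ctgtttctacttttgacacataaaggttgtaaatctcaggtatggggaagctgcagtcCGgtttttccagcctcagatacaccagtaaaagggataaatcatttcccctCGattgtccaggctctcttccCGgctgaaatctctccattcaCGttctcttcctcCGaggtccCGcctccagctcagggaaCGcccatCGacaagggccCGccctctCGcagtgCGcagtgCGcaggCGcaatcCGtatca

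In these 250 bases Pgam2 has 2 CpG and Pgam1 has 25, and Pygm has 5 and Pygb has 14. Over the full 300 bases the ratio was 0.24 for Pgam2, against 1.01 for Pgam1, and 0.29 for Pygm, against 0.78 for Pygb and 0.76 for Pygl. The same order held for Pfkm at 0.37, against 0.80 for Pfkl and 0.78 for Pfkp. It held for Eno3 at 0.11, against 0.65 and 0.72 for the starts of Eno1, for Slc16a3 at 0.33, against 1.01 for Slc16a1, and for Pfkfb1 at 0.11, against 0.66 for Pfkfb3. In 8 of 11 pairs with promoters of both genes, the muscle isoform had the lower ratio at every start. Pfkm and Pygm each enter 2 of these 8 pairs, so the pairs are not independent. In 2 pairs the order was the other way, with Hk2 at 0.94, against 0.16 and 0.54 for Hk1, and Ldha at 0.88, against 0.48 for Ldhb. The 3 starts of Aldoa spanned 0.18 to 0.72, around the 0.26 of Aldoc.

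**Figure D3:**
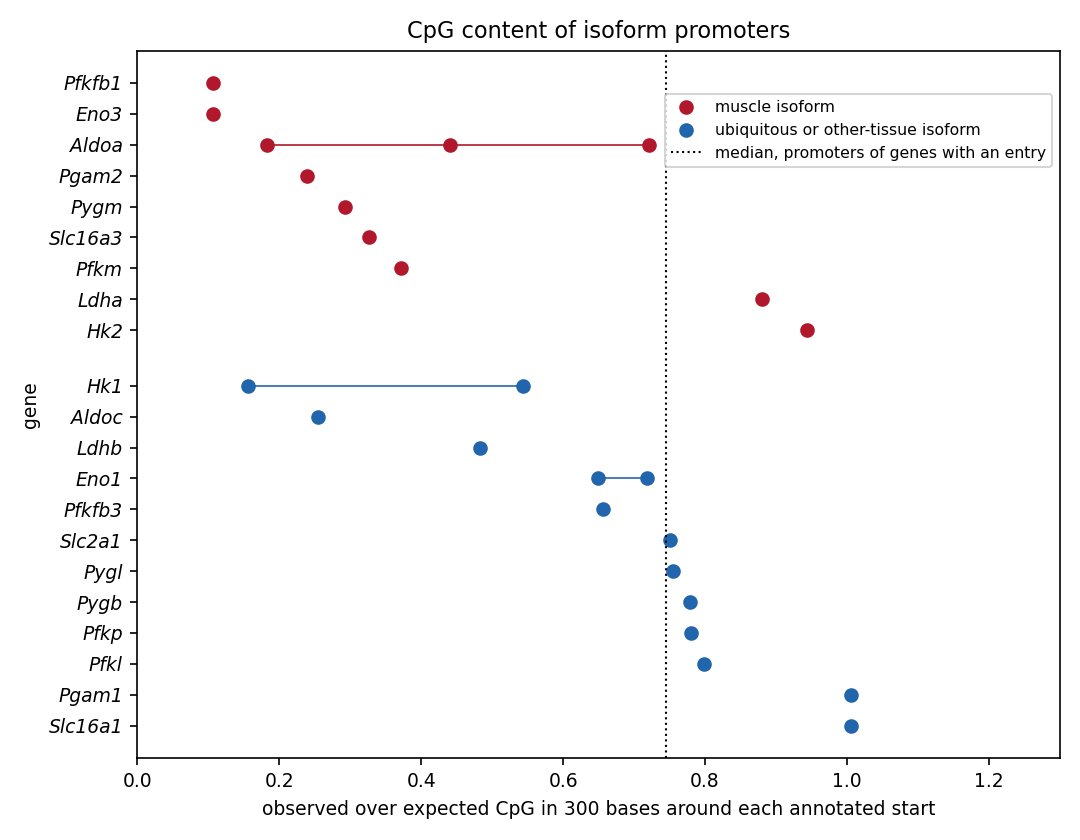
Observed over expected CpG ratio in 300 bases around each RefSeq start, with muscle isoforms in the upper block and other isoforms in the lower block, 1 point per start and starts of a gene joined by a line. The dotted line is the median of promoters whose gene has an entry (0.75). Muscle isoforms lie left of it at all starts except those of Ldha (0.88) and Hk2 (0.94).

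A promoter was counted as CpG-rich at a ratio of at least 0.6 with at least 50% G and C. By that count 3 of 11 starts of muscle isoforms were CpG-rich, or 27.3%, against 10 of 14 starts of the other isoforms, or 71.4%. Among promoters of all genes with an entry the share was 64.4%, and among all 33469 promoters of the table it was 31.2%. Members without a compared paralog had 9 of 12 starts that were CpG-rich. Both ends of their range were muscle subunits of phosphorylase kinase, with Phkg1 lowest at 0.21 and Phka1 highest at 0.91. The muscle isoforms with CpG-poor promoters included both the most read genes (Aldoa at its other starts, Pygm, Eno3 and Pfkm) and the least read of their class (Pfkfb1 at 4.68 log2 CPM and Slc16a3 at 5.55 log2 CPM). The starts are those of RefSeq, and which of them TA muscle uses was not measured.

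Short motifs were searched on both strands of the same 300 bases. CAGCTG, an E-box form that myogenic factors such as MyoD can bind, was found at 5 of 11 starts of muscle isoforms (Pygm, Pgam2, Hk2, Eno3 and a start of Aldoa), against 1 of 14 starts of other isoforms (Pygl). Members without a compared paralog had it at 2 of 12 starts (Gpi and Gys1). CAGCTG occurs in 15.1% of all promoters and in 16.0% of those of genes with an entry. The looser E-box CANNTG, of which CAGCTG is one form, was found at 8 of 11 starts of muscle isoforms, against 8 of 14 of other isoforms, beside 72.1% of all promoters and 63.5% of those of genes with an entry. Members without a compared paralog had CANNTG at 7 of 12 starts. Pgam2 has 5 such E-boxes and Pygm has 4, of which 2 in each are CAGCTG. CTA and TAG with 4 bases between them, the outline of the site of MEF2 factors, were found only at 2 starts of Aldoa among members, beside 3.84% of all promoters and 2.98% of those of genes with an entry. ACGTG, the core of hypoxia-response elements that also lies within the E-box CACGTG, was found at 4 of 11 starts of muscle isoforms, against 9 of 14 of other isoforms, beside 19.3% of all promoters and 24.0% of those of genes with an entry. Members without a compared paralog had ACGTG at 6 of 12 starts. TATAAA was found at 1 of 11 starts of muscle isoforms (Pgam2), against 1 of 14 of other isoforms (Slc2a1), and at 3 of 12 starts of members without a compared paralog. It occurs in 14.2% of all promoters and in 7.40% of those of genes with an entry. A match describes the letters of a window and does not show that a factor binds there.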

How the data were processed

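RNA sequencing covered TA muscle of 4 Pink1-/- and 4 WT male rats, with genotypes as labelled. Per the labels, libraries were made with an Illumina TruSeq RNA kit, and RSEM and edgeR 3.9 appear in the submitters' processing notes. Genome build: not given in the sources used here. This applies also to annotation, filters and normalization. The deposited table holds 1 average log2 CPM per gene, which the authors computed over all samples. Its other columns (fold change, likelihood ratio, p-values and status) are the authors' own comparison of the genotypes and were not used. It holds 0 columns per sample, so neither depth nor variation among rats is known, and no test was made.

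Members were found by symbol, and the highest entry was to be taken for repeated symbols (64 in the table, none a member). Percentiles are the share of the 14016 entries with a lower value. The plan called for levels per kilobase of coding sequence, and for lack of lengths in the reference used, values without a length correction were reported. Shares are of CPM transformed back from the log2 scale. All members are named. Of the other pathway genes, the 5 highest and 5 lowest by log2 CPM in place of the value per kilobase, and isoforms of the same families, are named, except that 1 of the 5 highest is not reported here. From that list, Gpi1 was left out as an older symbol of Gpi. The members, lists and motifs were chosen with earlier results of these data known. Promoters are from RefSeq (GRCr8). The functions were tested on simulated data. Scripts ran in Python 3.11.15 with pandas 2.3.3, numpy 2.4.6 and matplotlib 3.10.9. Alternatives were other entries of the table for percentiles, copies added to members, and further isoforms.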

Additional observations from a re-analysis of the deposited data

How the results depend on the processing

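Not run were differences and shares per coding or transcript length, for lack of lengths in the reference used, and leaving out each rat, since the table has no column per rat. No paired analysis was possible because single rats have no values in it. Taking the lowest or the summed entry of a symbol changed nothing, since each member has 1 entry. The remaining alternatives but one were chosen after the data were seen. Without the 2 highest entries the median level of the members is 8.54 log2 CPM. Counting only entries of at least 1 log2 CPM, the planned one, or only protein-coding entries, the median percentile is 98.1 or 98.5 for all members (98.4 as reported here), 83.9 or 85.8 for transporters (86.4), 98.9 or 99.2 for glycolytic enzymes (99.1), 93.3 or 94.2 for lactate dehydrogenases (94.4), 96.8 or 97.4 for glycogen enzymes (97.3) and 65.1 or 68.7 for regulators and side branches (70.5). With copies added, the difference of Eno3 and Eno1 is 3.03 and that of Ldha and Ldhb 3.19, with shares of 89.1% for Eno3 and 90.1% for Ldha. With further isoforms added, the muscle share is 84.3% for Slc2a4, 54.8% for Slc16a3, 89.2% for Eno3 and 47.4% for Pfkfb1, so Pfkfb1 no longer holds most reads of its family. No difference changed sign. What depth limits cannot be said without library totals.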
